A study of Mus musculus with 44 samples.

Results

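Contacts of the Pik3ap1 promoter were compared between mouse liver and kidney by circular chromosome conformation capture with sequencing (4C-seq), which counts the DNA fragments ligated to 1 chosen fragment, the bait, after crosslinking. All 5927 fragments listed for this bait were used, of 30070 listed for the 5 baits of the series, and liver was set against kidney at the same fragment. The bait fragment was chr19:41383980-41385551 (GRCm38), and the bait position lay 336 bp inside the start of Pik3ap1 (ENSMUSG00000025017, chr19:41272377-41385102, minus strand). Fragments reached from -1999.2 to 1999.5 kb of the bait, negative distances being lower coordinates, which run into the Pik3ap1 gene body, with a median spacing of 588 bp. The liver group and the kidney group each held 2 libraries of WT C57BL/6 mice aged 8 to 12 weeks, fed ad libitum and taken at ZT8, that is 8 h into the light phase. Both tissues were thus from 1 strain, genotype, feeding and time. The same series also holds 4C-seq of WT mice with 4 further baits at ZT20, and kidney RNA-seq under night-restricted feeding. The RNA libraries used here are the 12 of WT mice, which are of another strain (129SV). Those of Bmal1-knockout mice were not used.

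Pik3ap1 encodes BCAP, an adaptor that links receptors of B cells and myeloid cells to phosphoinositide 3-kinase. A promoter can be brought near other DNA of its chromosome by looping, and in 4C-seq such contacts stand above a signal that falls steeply with distance. Liver and kidney are mixtures of cell types, so fewer cells with a contact and fewer contacts per cell cannot be told apart. The 4C libraries hold no RNA, and their tissue labels could not be checked against marker genes.

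The deposited value A is the smoothed contact signal of a fragment in a tissue, on a scale that is not given in the sources used here, so differences and no ratios of A are reported. Each tissue has 1 value of A, with 1 variance, from its 2 libraries together. There is therefore no spread between libraries to test against, and no p-value is given. The standard error (SE) of liver minus kidney was the square root of the summed variances of both tissues, with a median of 0.0329 and a maximum of 0.0956. A fragment was called where its difference passed 3 SE, and called fragments of 1 direction were joined into a region across gaps of up to 10 kb. The peak of a region is its fragment with the largest difference over SE, which need not be the highest fragment of either tissue. Neighbouring fragments share reads through the smoothing, so counts of fragments are not counts of independent measurements.

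The bait end and some of the fragments with the largest differences are shown first, to give the DNA behind the values. The promoter (RefSeq, GRCm38.p6, chr19:41385103-41385352, minus strand) is the 250 bases before the transcription start and lies in the bait fragment. Its capitals mark a CTCF core (AGGNGGC, N being any base) that starts 196 bases before the start site and an E-box (CACGTG), the element bound by the circadian activators, that starts 172 bases before it. Of 32851 RefSeq promoters of this length, 6.02% held this E-box and 25.0% this CTCF core, on either strand.
Pik3ap1 promoter: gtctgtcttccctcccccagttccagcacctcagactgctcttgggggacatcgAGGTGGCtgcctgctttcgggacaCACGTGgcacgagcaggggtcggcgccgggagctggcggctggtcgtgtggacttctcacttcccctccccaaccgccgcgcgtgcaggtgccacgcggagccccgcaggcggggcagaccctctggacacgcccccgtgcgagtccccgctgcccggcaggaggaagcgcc
The other sequences are GRCm38, plus strand. The fragment at the peak of the liver region 33.3 kb above the bait (chr19:41418029-41418125) is short enough to show whole. Its capitals mark the GATC at each end and the CATG inside it, which every one of the 5927 listed fragments holds.
Fragment 33.3 kb above the bait: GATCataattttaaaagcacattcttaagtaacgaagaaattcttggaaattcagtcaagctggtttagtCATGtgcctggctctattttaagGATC
In the next 4, the 300 bases at the middle of a peak fragment, capitals mark CATG, the CTCF core on either strand and the D-box (TTATGNAA), another circadian element. They are the largest liver excess, in an intron of Pik3ap1 (chr19:41346843-41347142), the liver excess farthest out among the named ones (chr19:41573147-41573446), and the kidney peaks in introns of Entpd1 (chr19:40697648-40697947) and Slit1 (chr19:41664261-41664560).
Pik3ap1 intron, higher in liver: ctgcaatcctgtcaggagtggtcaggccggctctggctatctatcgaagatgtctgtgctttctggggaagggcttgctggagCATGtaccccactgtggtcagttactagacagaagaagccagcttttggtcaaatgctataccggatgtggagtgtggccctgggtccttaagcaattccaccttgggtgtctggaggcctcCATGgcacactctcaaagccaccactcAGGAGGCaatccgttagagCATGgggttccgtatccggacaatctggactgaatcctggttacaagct
Between Lcor and Gm340, higher in liver: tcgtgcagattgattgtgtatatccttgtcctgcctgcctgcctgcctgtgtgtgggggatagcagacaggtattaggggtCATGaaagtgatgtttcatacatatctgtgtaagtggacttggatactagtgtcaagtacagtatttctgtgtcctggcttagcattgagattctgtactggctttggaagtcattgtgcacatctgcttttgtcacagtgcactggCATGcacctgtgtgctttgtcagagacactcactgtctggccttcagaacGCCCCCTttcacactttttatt
Entpd1 intron, higher in kidney: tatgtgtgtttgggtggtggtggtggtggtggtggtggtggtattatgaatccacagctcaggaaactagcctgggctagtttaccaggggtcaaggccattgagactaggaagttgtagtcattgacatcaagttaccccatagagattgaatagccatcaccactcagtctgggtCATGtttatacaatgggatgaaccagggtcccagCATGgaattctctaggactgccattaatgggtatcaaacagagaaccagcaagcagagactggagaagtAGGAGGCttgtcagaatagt
Slit1 intron, higher in kidney: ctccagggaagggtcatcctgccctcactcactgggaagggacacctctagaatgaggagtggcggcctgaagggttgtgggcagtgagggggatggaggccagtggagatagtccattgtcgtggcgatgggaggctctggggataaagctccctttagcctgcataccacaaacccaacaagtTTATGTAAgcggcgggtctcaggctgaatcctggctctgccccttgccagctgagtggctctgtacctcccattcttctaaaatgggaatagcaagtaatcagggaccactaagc
A match is a description of the letters only, and the smoothed signal does not place a contact on a single fragment.

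Which tissue had the higher signal changed with distance from the bait. Next to it kidney was the higher tissue, from -20.8 to 10.3 kb. From there out to about 200 kb, liver mostly had more contact signal than kidney, both into the Pik3ap1 gene body and on the other side towards Lcor, which encodes a corepressor of nuclear receptors. Farther out, kidney had more signal over Tll2, a tolloid-like metalloprotease gene, and Slit1, which encodes a secreted axon guidance protein. In all, 209 fragments were called higher in liver (3.53%) and 124 higher in kidney (2.09%). The listed fragments numbered 537 within 200 kb of the bait, 879 between 200 and 500 kb and 4511 beyond. Counts of calls at these distances are therefore to be read against these numbers. Of the liver calls, 194 lay within 200 kb of the bait, 0 between 200 and 500 kb and 15 beyond. Of the kidney calls, 12 lay within 200 kb, 77 between 200 and 500 kb and 35 beyond. As shares of the fragments at each distance, kidney calls were 8.76% between 200 and 500 kb and 0.776% beyond 500 kb. The kidney calls between 200 and 500 kb were small in units of their error: at 4 SE 0 of the 77 were left, while 126 liver calls within 200 kb were left. Which tissue had more calls depended on the rule: at 2 SE there were 436 liver and 703 kidney calls, and without the 10% of fragments with the largest variance 77 and 104. The mean SE differed with distance, for example 0.0582 from 100 to 200 kb above the bait and 0.0287 from 1000 to 2000 kb. Leaving out large variances therefore does not remove fragments evenly over the distances.

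**Figure D1:**
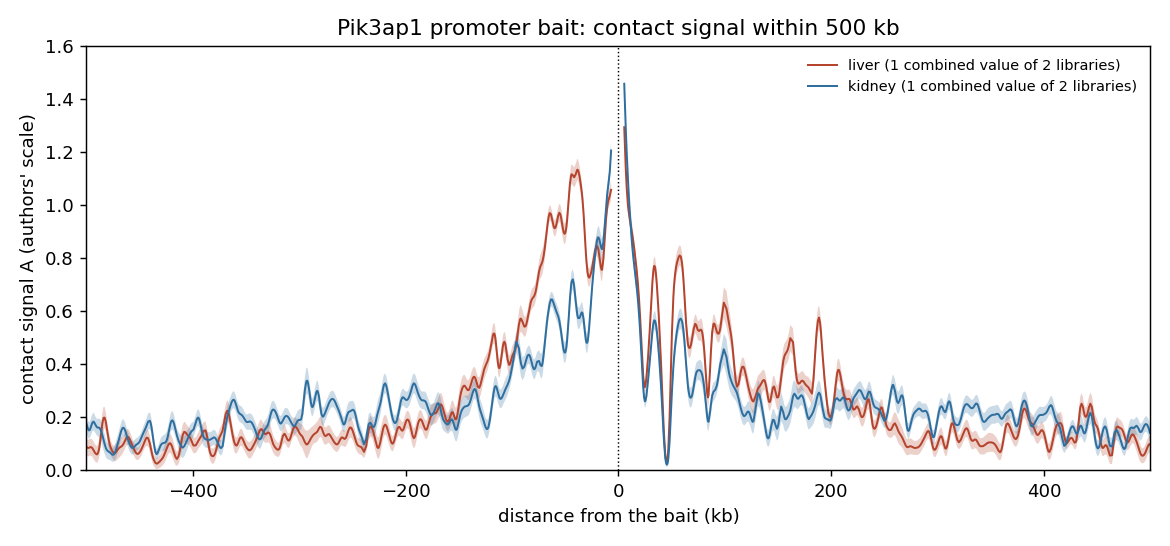
Contact signal A of liver and kidney against the distance from the Pik3ap1 bait in kb, for fragments within 500 kb. Lines are the 1 combined value per tissue and bands are 1 SE from the deposited variance. Liver lies above kidney around -38 kb, where it reaches 1.13, and kidney lies above liver from 251.4 to 385.7 kb on the right.

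Between 20 and 200 kb from the bait, the median signal was 0.419 in liver and 0.285 in kidney. The median difference was 0.133, and liver was above kidney at 446 of 498 fragments (89.6%). Between 200 and 500 kb the order was the other way round, with medians of 0.121 in liver and 0.190 in kidney. There kidney was above liver at 732 of 879 fragments (83.3%), by a median of 0.0625. From 500 to 2000 kb the medians were 0.0363 and 0.0516, with a median difference of -0.0029. The signal summed over all fragments was 593 in liver and 604 in kidney.

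Both sides of the bait showed this order of distances. Into the gene body, from 20 to 50 kb, the median was 0.913 in liver and 0.592 in kidney, and liver was above at 39 of 41 fragments. From 50 to 100 kb on that side the medians were 0.767 and 0.439, and liver was above at 70 of 73. From 100 to 200 kb that side was mixed, with liver above at 104 of 151 fragments (68.9%), a median difference of 0.0491, 28 liver calls and 7 kidney calls. On the other side, liver was above at each of the 48 fragments from 20 to 50 kb, the 64 from 50 to 100 kb and the 121 from 100 to 200 kb. The medians there were 0.527 against 0.343 from 50 to 100 kb. From 200 to 500 kb, kidney was above at 378 of 445 fragments on the gene side and at 354 of 434 on the other.

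**Figure D2:**
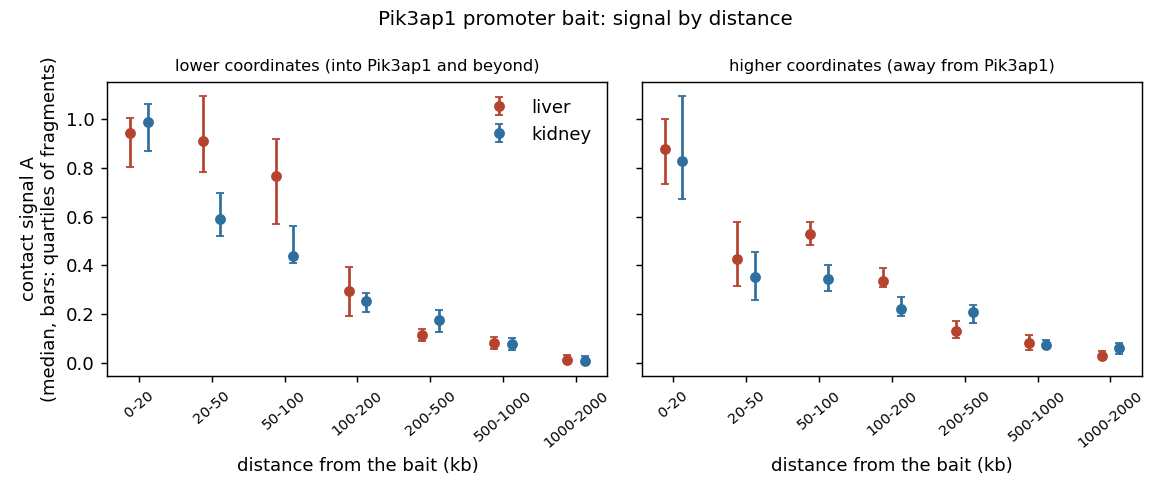
Median contact signal A by distance from the bait, on the gene side (left) and the other side (right), with quartiles of the fragments as bars. Liver is above kidney from 20 to 200 kb on both sides and below it from 200 to 500 kb, for example 0.128 against 0.209 on the right.

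The sign of the difference ran on over long stretches. Liver was above kidney at 271 fragments in a row from 11.5 to 218.5 kb (chr19:41395842-41603467), the longest run of the window, which starts beyond the promoter, takes in Lcor and Gm340 and ends in Slit1. On the gene side, 103 fragments from -93.5 to -21.5 kb and 108 fragments from -167.7 to -97.9 kb were higher in liver. These are broken by 3 fragments near -97 kb, and the farther run ends in Tm9sf3, a gene of the nonaspanin membrane protein family. Kidney was above liver at 240 fragments in a row from -332.6 to -176.2 kb (chr19:41052079-41208919), which spans Opalin and Tll2. It was also above at 209 in a row from 251.4 to 385.7 kb (chr19:41636004-41771706), which covers most of Slit1.

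The liver calls formed 12 regions, 9 of them within 200 kb of the bait. Of the 12, 7 overlapped a protein-coding gene and 1 held a start site, that of Tm9sf3. The largest by length and by difference was chr19:41299281-41357786, 58.5 kb and 84 called fragments inside the Pik3ap1 gene itself. At its peak in an intron, at -37.8 kb, the signal was 1.13 (SE 0.0403) in liver and 0.574 (SE 0.0409) in kidney. The difference was 0.557, with a 95% interval of 0.444 to 0.669. The highest liver fragment on the gene side was beside it, at -38.4 kb, whereas in kidney the highest on that side was the nearest listed to the bait, at -6.87 kb.

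The next liver region (chr19:41257334-41278541) covered the end of Pik3ap1 and the start of Tm9sf3. At its peak, at -122.1 kb in a Tm9sf3 intron, the signal was 0.423 (SE 0.0329) in liver and 0.163 (SE 0.0336) in kidney. The fragment at the Tm9sf3 start site had 0.447 in liver and 0.190 in kidney, a difference of 0.257 (SE 0.0465). In the kidney RNA libraries, Tm9sf3 was at 42.5 to 48.4 TPM (transcripts per 1e+06 transcripts).

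On the other side of the bait, liver regions lay in the gap between Pik3ap1 and Lcor. The peak 33.3 kb above the bait, whose fragment is printed whole, had 0.766 (SE 0.0341) in liver and 0.562 (SE 0.0341) in kidney. At 52.2 kb (region chr19:41431905-41460443, which holds the processed pseudogene Gm9788) the values were 0.692 (SE 0.0400) and 0.421 (SE 0.0400). At 90.4 kb, in a region (chr19:41470536-41479064) that ends 3.57 kb before Lcor, they were 0.551 (SE 0.0337) and 0.3004 (SE 0.0337). A further 3 liver regions lay in introns of Lcor, with differences of 0.171 to 0.251. The last named one, at 188.5 kb (chr19:41570315-41577025), lies 5.35 kb from Gm340, with 0.576 (SE 0.0453) in liver and 0.293 (SE 0.0461) in kidney.

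**Figure D3:**
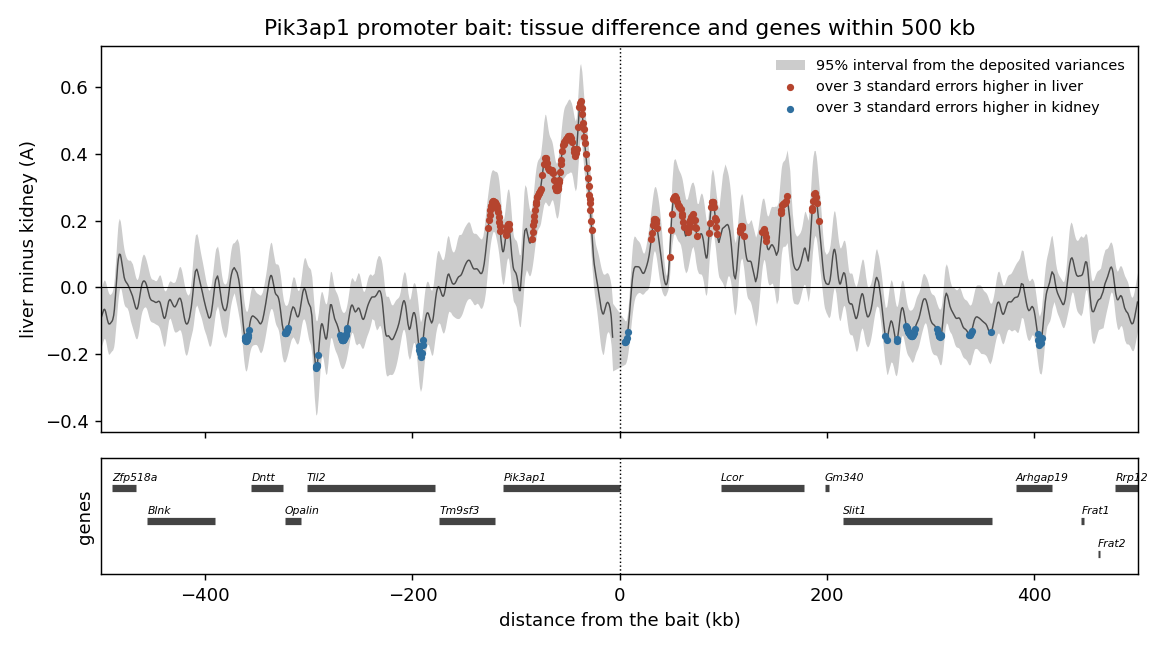
Liver minus kidney in contact signal A against the distance from the bait in kb, with the 95% interval from the deposited variances in grey and called fragments coloured by the higher tissue. Bars underneath are protein-coding genes. Liver calls reach 0.557 in Pik3ap1, where 91 of 153 fragments are called, and lie scattered up to 200 kb on the side of Lcor, and kidney calls lie over Tll2, Opalin and Slit1 and next to the bait.

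The kidney calls formed 17 regions, of which 15 overlapped a protein-coding gene and 0 held a start site. Of all single fragments, 71.7% lay in a gene body. The listed fragment nearest the Slit1 start site was called, with 0.0678 in liver and 0.201 in kidney, but it ends short of that site. Directly beside the bait, at 6.11 kb (region chr19:41389492-41393138), kidney had 1.38 (SE 0.0226) and liver 1.22 (SE 0.0223), a difference of -0.161 (95% interval -0.223 to -0.0987). Kidney was above liver at the 27 fragments from -20.8 to 10.3 kb, which include the highest fragment of both tissues, at 4.93 kb, with 1.36 in liver and 1.52 in kidney. The second kidney region by difference over SE was distant, at -687.0 kb in an intron of Entpd1, the gene of the ectonucleotidase CD39 (chr19:40694525-40701574). Its peak had 0.0197 (SE 0.0326) in liver, which is below its own error, and 0.238 (SE 0.0345) in kidney. The difference was -0.218 (95% interval -0.311 to -0.125).

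Of the other kidney regions named by rank, 2 lay in introns of Tll2. At -192.2 kb (chr19:41190539-41195201) the signal was 0.121 (SE 0.0376) in liver and 0.328 (SE 0.0374) in kidney. At -266.0 kb (chr19:41114242-41122008) it was 0.101 (SE 0.0295) and 0.256 (SE 0.0287). In Slit1, at 279.6 kb (chr19:41639728-41669738), it was 0.0842 (SE 0.0262) in liver and 0.223 (SE 0.0255) in kidney. In Arhgap19, at 404.9 kb (chr19:41787252-41792052), it was 0.0686 (SE 0.0310) and 0.240 (SE 0.0301). The peak differences of the 17 kidney regions were 0.0797 to 0.236 in size, against 0.126 to 0.557 for the 12 liver regions. At 4 SE, 2 kidney regions were left, those beside the bait and in Entpd1, and 6 liver regions.

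Subtracting from each difference the median of its distance bin takes away the pattern of distance shared by both sides, by construction. The bins joined both sides of the bait, so differences between the sides stay in beside local ones. From 20 to 50 kb the median difference was 0.398 on the gene side and 0.0821 on the other. From 50 to 100 kb it was 0.292 and 0.189. Peaks on different sides are therefore not comparable after this subtraction. The Pik3ap1 intron peak was at 0.424 after it, the peak by Gm340 at 0.204 and the Tll2 peak at -192.2 kb at -0.286. The peaks at 33.3, 52.2 and 90.4 kb were at 0.0715, 0.0558 and 0.0353, and those in Slit1 and Arhgap19 at -0.0767 and -0.109.

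Averaged over gene bodies, 52 protein-coding genes of the window had fragments. The 95% interval, which treats the errors of a gene's fragments as wholly shared, lay above 0 for 4 genes and below 0 for 2, and it held 0 for 46. The median over the 52 genes was -0.0013. Pik3ap1 had the highest mean difference, 0.220 (SE 0.0520, interval 0.118 to 0.322), with 0.766 in liver and 0.545 in kidney. After subtraction of the distance-bin medians of both sides together it was 0.0764, and its interval then held 0. On the gene side alone, the medians were -0.0621 up to 20 kb, 0.398 to 50 kb, 0.292 to 100 kb and 0.0491 to 200 kb. These were not subtracted, so 0.0764 is not an excess over the distance trend of the gene side. Liver was above at 131 of the 153 Pik3ap1 fragments, and 91 of them were called. Lcor followed with 0.357 in liver and 0.236 in kidney, a difference of 0.121 (interval 0.0055 to 0.236), and liver was above at each of its 96 fragments. The other 3 of the highest 5 lay over 500 kb away. Zdhhc16, a palmitoyltransferase gene, had 0.160 in liver and 0.0594 in kidney, a difference of 0.101 (interval 0.0307 to 0.171). The gene 4933411K16Rik was at 0.0876 over 2 fragments (interval 0.0109 to 0.164), and Marveld1, a MARVEL-domain membrane protein gene, at 0.0718 (interval -0.0059 to 0.149).

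At the other end stood Tll2, with 0.135 in liver and 0.237 in kidney, a difference of -0.102 (interval -0.197 to -0.0066) and liver above at 0 of 187 fragments. Opalin, a myelin gene of oligodendrocytes, was at -0.0924 (interval -0.173 to -0.0123), with liver above at 0 of 25. The intervals of the next 3 held 0: Slit1 was at -0.0872 (interval -0.175 to 0.0007), Arhgap19 at -0.0598 and Rrp12, a ribosome biogenesis gene, at -0.0548. Liver was above at 11 of the 221 Slit1 fragments.

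For the remaining neighbours the intervals held 0. Tm9sf3 as a whole was at 0.0687 (interval -0.0404 to 0.178), with liver above at 66 of 76 fragments. Blnk, which encodes another B cell adaptor, had 0.0886 in liver and 0.130 in kidney, a difference of -0.0414 (interval -0.124 to 0.0412). Dntt, the gene of the polymerase that adds bases at antigen receptor joins, was at -0.0543 (interval -0.144 to 0.0356). Entpd1 was at -0.0027 over its 198 fragments, although 8 of them were called higher in kidney. Frat1, whose protein binds the kinase GSK3, was at 0.0428 over 2 fragments (interval -0.0648 to 0.150).

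**Figure D4:**
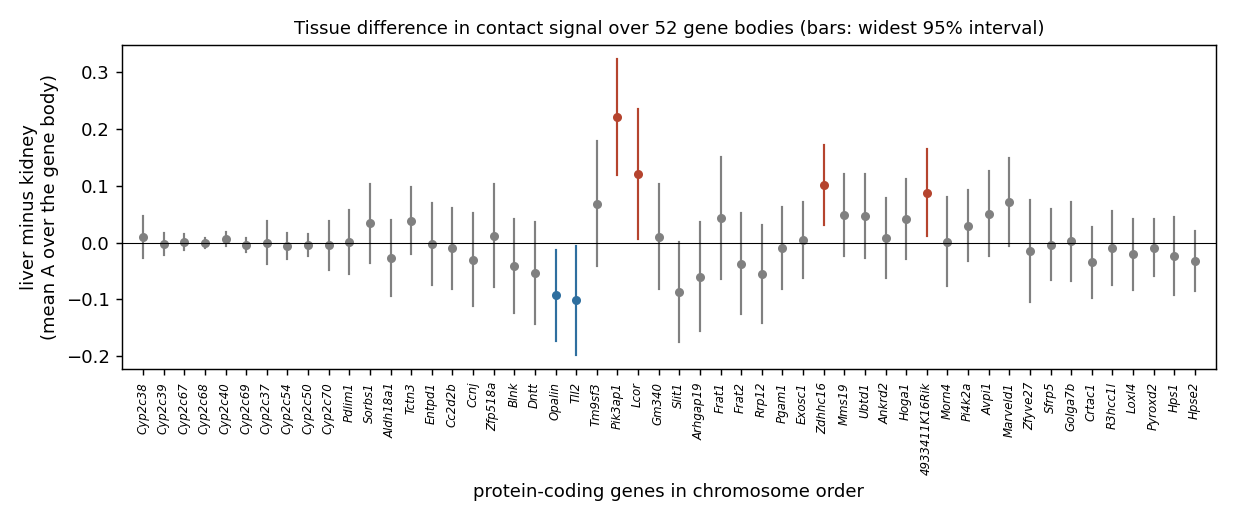
Mean liver minus kidney in contact signal A over each of 52 gene bodies, in chromosome order, with the widest 95% interval. Genes whose interval lies above 0 are red and those below 0 blue. Pik3ap1 (0.220) and Lcor (0.121) are the highest, and Tll2 (-0.102) and Opalin (-0.0924) the lowest.

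In the kidney RNA libraries, which come from other mice than the 4C libraries, Pik3ap1 was at 0.583 and 0.561 TPM at ZT8 and at 0.399 to 0.892 TPM over 12 WT libraries. Of the genes with the lowest differences, Opalin was listed at 0 in each library, Tll2 reached at most 0.0050 TPM, and Slit1 had a median of 0.0297 TPM, while Arhgap19 had a median of 0.394 TPM and Rrp12 of 1.76 TPM. Lcor had a median of 1.67 TPM, Zdhhc16 10.3 TPM and Blnk 8.09 TPM. Summed markers in these libraries were 2940 to 3717 TPM for kidney cell types (7 genes), 27.9 to 85.1 TPM for myeloid cells (4 genes) and 0.811 to 2.77 TPM for B cells (3 genes), and no marker of the 3 lists was listed at 0. The hepatocyte list (3 genes) summed to at most 42.4 TPM, mostly Serpina1a, with Alb at 1.87 to 4.03 TPM. The part of any cell type in the contact differences was not tested, and no liver RNA was analysed here.

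The called fragments were also described by sequence, in windows of 300 bases around the middle of each fragment. For fragments shorter than that, the window reaches into the neighbouring DNA. The median GC content was 43.7% over all fragments, 45.3% in those higher in liver and 47.7% in those higher in kidney. A gene body was overlapped by 71.7%, 65.1% and 87.1%. The CTCF core was in 12.1% of all windows, in 34 of 209 liver windows (16.3%) and in 29 of 124 kidney windows (23.4%). The E-box was in 3.71%, 5.26% and 3.23%, and the D-box in 6.19%, 2.87% and 4.03%. The forkhead motif (TGTTTAC) was in 4.84%, 4.78% and 4.84%, and the core of the ROR element (TAGGTCA) in 3.04%, 3.35% and 3.23%. All motifs were searched on both strands. Called fragments lie side by side in few regions, so these shares carry no test.

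The other 4 baits, all at ZT20, give a background for the size of the calls. Higher in liver were 2.88% of fragments for Mreg, 1.72% for Slc44a1, 0.593% for Slc45a3long and 1.23% for Slc45a3short. Higher in kidney were 0.412%, 1.91%, 0.214% and 1.04%. From 20 to 200 kb, 39.0% of the Pik3ap1 fragments were called higher in liver, against 16.1% for Mreg, 14.0% for Slc44a1, 0.366% for Slc45a3long and 10.2% for Slc45a3short. The median difference at that distance was 0.133 for Pik3ap1, 0.0464 for Slc44a1, 0.0166 for Mreg, -0.0048 for Slc45a3short and -0.012 for Slc45a3long. From 200 to 500 kb it was -0.0625 for Pik3ap1, -0.0348 for Slc45a3short, -0.0215 for Slc44a1, 0.0006 for Slc45a3long and 0.0107 for Mreg. Slc44a1 thus had the same 2 signs as Pik3ap1. The level of the signal also differed between baits. From 20 to 200 kb the liver and kidney medians were 0.130 and 0.128 for Mreg and 0.567 and 0.488 for Slc44a1. They were 0.205 and 0.231 for Slc45a3long and 0.327 and 0.377 for Slc45a3short, so the sizes of these differences are not on a shown common scale. The other baits were taken at another time, and the difference between baits was not tested.

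**Figure D5:**
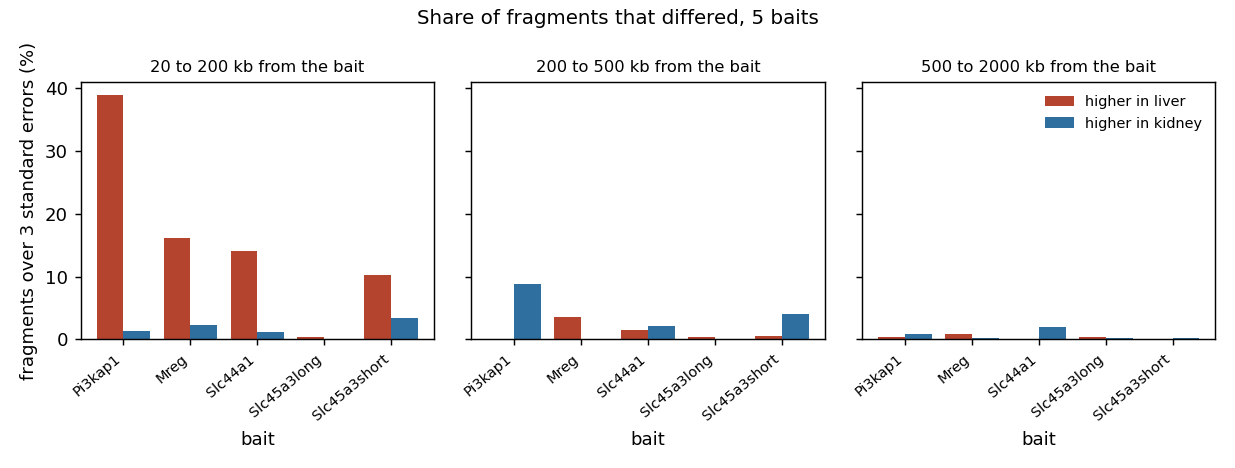
Share of fragments called higher in liver or in kidney, in percent, for the 5 baits at 3 distances from the bait. The Pik3ap1 bait (labelled Pi3kap1) has 39.0% higher in liver from 20 to 200 kb and 8.76% higher in kidney from 200 to 500 kb.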

How the data were processed

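The 4C-seq table of the Pik3ap1 bait was used as deposited. Its A column is a score, the smoothed contact signal by the authors, with a deposited variance score beside it; how the 2 libraries per tissue were normalized, smoothed and combined, and the depth of each library, are not given in the sources used here. The deposited Z-score and p-value columns were not used. Liver and kidney variances had a ratio of 0.698 to 1.41 and were within 1% of each other at 742 of 5927 fragments, so they are not shown to be the spread of each tissue's own libraries. Liver and kidney share the library letters AB and CD, and whether a letter marks the same animal is not stated. The SE of the difference treats the tissues as independent.

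The submitters' processing notes name mm9 for 4C-seq. The offsets were placed by sequence instead: 5927 of 5927 matched the middle of a GATC fragment of GRCm38 chromosome 19 at the stated bait. No other placement tried on that chromosome passed a first screen on a subset of the offsets, so none was scored in full. These fragments are 59.4% of the 9970 in the window; each holds CATG, as do 7.49% of the 4043 others. Genes are from GENCODE vM21, and promoters from RefSeq.

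Liver minus kidney, its SE, the 95% interval (1.96 SE), calls beyond 3 SE and regions were computed in Python 3.11.15 with pandas 2.3.3 and numpy 2.4.6, and tested on simulated profiles. For a gene body, the mean difference is given with the mean SE of its fragments. Kidney RNA values are TPM from kallisto 0.42.4, per the submitters' processing notes, summed by gene over the deposited transcripts; 12 WT columns were used and 12 sample columns were not.

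Named were Pik3ap1, the 6 regions per tissue with the largest difference over SE and the genes in or nearest to them, the 5 genes with the highest and the 5 with the lowest mean difference, and 8 neighbours. These lists, the distance bounds and the tests were chosen with earlier results of these data known, and the sequences printed were picked after their values were seen. Alternatives were other multiples of the SE, centring, scaling, gaps, a minimum difference, and leaving out fragments. A doubled variance was added after seeing the data.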

Additional observations from a re-analysis of the deposited data

How the results depend on the processing

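No paired analysis was possible because the deposited values combine the 2 libraries of each tissue; for the same reason no library could be left out. At 2 SE, 436 fragments (24 regions) were higher in liver and 703 (47) in kidney; at 4 SE, 126 (6) and 7 (2). With the variance of each tissue doubled, 116 (5) and 6 (2) were left, and 0 kidney calls between 200 and 500 kb. With a difference of at least 0.2 as well, 7 liver regions and 10 kidney fragments in 3 regions were left. Subtracting the median over all fragments gave 314 liver fragments in 21 regions; of the 105 added, 100 had signals below 0.01 in both tissues. Subtracting the median of the distance bin, over both sides together, gave 20 liver and 9 kidney regions. Within 200 kb there were then 52 liver and 55 kidney calls, in place of 194 and 12. Between 200 and 500 kb there were 9 and 0, and beyond 500 kb 138 and 30. From 1000 to 2000 kb the median difference was 0.0001 below the bait and -0.0265 above it. The joint median of that bin therefore lies under that of the lower side, and its subtraction shifts the lower side towards liver. How many of the 138 had signals near 0 was not counted. The mean over Pik3ap1 was 0.0764 in place of 0.220. Without the 10% of fragments with the largest variance, 77 liver and 104 kidney fragments were left. Joining across 30 kb gave 4 and 11 regions. Of 36 alternative values for the 12 named peaks, 25 moved by less than 1 SE, 11 moved by more, all under the distance bin, and 0 changed sign. Scaling each tissue to the mean of both beyond 20 kb gave 219 liver fragments. With the other bin edges, liver was above kidney from 25 to 150 kb, and kidney from 150 to 400 kb, in the median on both sides.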

Other observations

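The fragments beyond 1 Mb differed between the sides of the bait. From 1000 to 2000 kb above it, kidney was above liver at 1185 of 1445 fragments (82.0%), with medians of 0.0585 and 0.0292. Over the same distances below it, kidney was above at 751 of 1574 (47.7%), with medians of 0.0087 in kidney and 0.0090 in liver. The kidney regions of the upper side lay in Hpse2, a gene of the heparanase family, at 1581 to 1744 kb, where liver was at 0.0127 or less and kidney at 0.0876 to 0.123. Another 2 lay in Crtac1, at 942.5 and 976.9 kb. On the lower side, the 10 Cyp2c genes, a family of cytochrome P450 enzymes, had mean signals of at most 0.0288 in liver and 0.0337 in kidney, with differences between -0.0063 and 0.0103.

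Both tissues had a sharp low close to the bait. At 45.2 kb liver was at 0.0318 (SE 0.0097) and kidney at 0.0224 (SE 0.0097), the lowest of all fragments within 100 kb, between the liver peaks at 33.3 and 52.2 kb. Liver regions beyond 500 kb were few: at 555.1 kb in Zdhhc16 liver was at 0.203 and kidney at 0.0574, at 586.7 kb in Mms19, an iron-sulfur protein assembly gene, 0.174 and 0.0480, and at -863.8 kb a single fragment had 0.164 and 0.0340.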
